A study of Homo sapiens with 32 samples.

Results

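Cadherins and non-clustered protocadherins are cell adhesion proteins with repeated extracellular cadherin domains. Classical cadherins bind the same or related cadherins on neighbouring cells when calcium is present, and their cytoplasmic tails bind catenins that link them to actin. Type I members include the epithelial and neural cadherins, and many type II members and non-clustered protocadherins are known from the wiring of the nervous system. H3K9me3 is a histone mark of heterochromatin, laid down over repeats and over genes that are kept silent.

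The 32 genes described here are all the protein-coding RefSeq genes on chromosomes 1 to 22 whose symbol is CDH or PCDH followed directly by a digit, with CDH17 left out, out of 19126 protein-coding genes on those chromosomes. They are 22 CDH and 10 PCDH genes, none of them part of the clustered protocadherin loci, and their bodies cover 10.1 Mb. Chromatin immunoprecipitation with sequencing was performed in LOVO and RKO, both labelled as colon adenocarcinoma cells. By the labels, H3K9me3 was precipitated from shControl and shMETTL3 cells of each line, in 4 groups of 2 libraries, each with inputs, where METTL3 is the catalytic subunit of an RNA methyltransferase. Further libraries are METTL3 precipitates and inputs of shControl cells and of cells labelled OLA, for 32 libraries in 16 groups of 2 in all. The values used here are the rows of 2 deposited lists of H3K9me3 peaks in hg38 coordinates, 1 for each line. Neither list names a library, replicate or condition, so METTL3 knockdown, the METTL3 precipitates and the OLA cells were not analysed here, and all statements below set the LOVO list beside the RKO list. With 1 list per line there was no replicate check and no test, and the depth behind the lists is unknown. A gene without a peak is 1 in which no region was listed: an absent mark and a mark too weak to be listed cannot be told apart. The lists hold no expression values, so the labelled cell type could not be checked against its markers.

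The sequences shown are regions around starts, to set beside where the peaks fell. RefSeq windows of GRCh38.p14 from 250 bases before to 50 after a start were found for 20 of the 32 genes, 32 windows in all because some genes have several starts. A peak met 0 of these 32 windows in LOVO and 0 in RKO, where the shares over 21156 windows of all protein-coding genes were 0.52% and 0.874%, so that few would be met in any such set. The genes without a window include PCDH10 and CDH11, where a peak ran across an end of the body (RKO in PCDH10, LOVO in CDH11). Their strand was not available, so whether these peaks cover a start was not determined. The count of 0 windows met thus does not extend to these genes. Shown here 5′ to 3′, with each CG dinucleotide in capitals, are the windows, among the genes that have one, of the gene with most bases under peaks (CDH18, chr5:20575664-20575963, minus strand), of the gene with the peak nearest to a start (CDH12, chr5:22853295-22853594, minus strand), of the next nearest (PCDH17, chr13:57631494-57631793, plus strand), and of the longest gene, which had no peak (PCDH15, chr10:55627893-55628192, minus strand).
CDH18: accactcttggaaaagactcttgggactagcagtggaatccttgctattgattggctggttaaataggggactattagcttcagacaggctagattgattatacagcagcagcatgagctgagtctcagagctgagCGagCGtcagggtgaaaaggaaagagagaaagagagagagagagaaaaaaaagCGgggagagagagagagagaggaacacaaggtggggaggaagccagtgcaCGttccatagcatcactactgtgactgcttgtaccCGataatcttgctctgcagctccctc
CDH12: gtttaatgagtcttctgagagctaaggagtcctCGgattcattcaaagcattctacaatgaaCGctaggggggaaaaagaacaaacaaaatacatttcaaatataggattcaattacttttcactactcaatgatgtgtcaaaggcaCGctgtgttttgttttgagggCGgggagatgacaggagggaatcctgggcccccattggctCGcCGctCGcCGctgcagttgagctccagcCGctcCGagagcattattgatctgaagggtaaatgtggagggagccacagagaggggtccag
PCDH17: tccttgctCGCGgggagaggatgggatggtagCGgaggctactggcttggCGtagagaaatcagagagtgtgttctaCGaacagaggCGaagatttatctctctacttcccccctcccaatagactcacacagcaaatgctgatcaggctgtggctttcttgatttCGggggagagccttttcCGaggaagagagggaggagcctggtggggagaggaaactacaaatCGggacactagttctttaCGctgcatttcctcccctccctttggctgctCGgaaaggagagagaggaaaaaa
PCDH15: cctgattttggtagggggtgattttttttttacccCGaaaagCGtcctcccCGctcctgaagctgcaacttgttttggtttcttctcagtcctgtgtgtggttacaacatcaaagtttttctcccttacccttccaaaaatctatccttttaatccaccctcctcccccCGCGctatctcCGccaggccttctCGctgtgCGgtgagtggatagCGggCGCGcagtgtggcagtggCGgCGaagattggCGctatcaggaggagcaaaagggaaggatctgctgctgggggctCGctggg
The CG count was 5 in the CDH18 window, 10 in CDH12, 11 in PCDH17 and 15 in PCDH15. The median was 10 over the 32 windows of the family (range 1 to 43) and 21 over all 21156, of which 98.03% hold at least 1 CG. It was 11 in 17 windows of genes with a peak in the body and 9 in 15 windows of genes without one. Low and high CG counts thus occurred on both sides. A LOVO peak (chr5:22853824-22856399, 2576 bp) began 230 bp upstream of the CDH12 window, and the RKO peak in PCDH17 (chr13:57632528-57634528) began 735 bp downstream of its window. For CDH18 the nearest peak lay 29.1 kb downstream in LOVO and 30.1 kb downstream in RKO, and for PCDH15 the nearest lay 742.0 and 535.3 kb upstream.

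LOVO peaks covered 43.9 kb of the bodies, or 0.434%, and RKO peaks 60.3 kb, or 0.597%. Over all protein-coding bodies the shares were 1.24% and 2.25%, and over the 2788 Mb of 1-Mb windows that hold a gene or a peak they were 1.42% and 2.50%. The bodies of all genes, weighted by length class (under 100 kb, 100 to 500 kb, 500 kb or more) as in the family, held 1.08% in LOVO and 1.89% in RKO. By class, LOVO peaks covered 0.350%, 0.615% and 0.369% of the members, against 1.20%, 1.39% and 0.943% of all bodies. RKO peaks covered 0.122% of the members of 100 to 500 kb against 2.71%, and 0.648% of the longest against 1.54%. The RKO share of the members under 100 kb was the exception, 2.24% against 2.06%. It came from PCDH10 (6.79 kb), in a stretch dense in RKO peaks, and from single peaks of 2.001 kb in CDH1, CDH5 and PCDH17. The single peaks were lost in the reduced RKO list described below. The 200 kb on each side of the genes held a larger share than the bodies did, 1.59% in LOVO and 1.43% in RKO, with flanks that overlap counted for each gene. These shares are weighted differently, since every gene adds the same length of flank while bodies count by their length. The LOVO flank bases were largest beside CDH9 (35.3 kb), CDH1 (33.1 kb), CDH3 (31.8 kb) and CDH11 (26.1 kb). CDH1 and CDH3 have mostly the same peaks beside them, so a difference for the family in general is not shown. The RKO total was 1.38 times the LOVO total in the family and 1.76 times over the whole lists. The RKO list was then reduced to its widest peaks, as many as LOVO has. Its total over the family fell below that of LOVO, to 30.3 kb. The cut fell among RKO peaks of 2001 bp (38.05% of the list), where ties were kept by chromosome and position. All 15 RKO peaks of this width in the family were lost, while LOVO kept its own 15. The order of the lines thus turned with a cut made in the RKO list only. With peaks above the median width of each list, RKO stayed higher, at 25.5 kb against 13.8 kb in LOVO.

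A peak was found in 8 of 32 genes in LOVO (25%, against 15.5% of all protein-coding genes) and in 8 in RKO (25%, against 20.5%). Both lines had a peak in 3 genes, CDH18, CDH12 and PCDH10 (9.38%, against 10.6% of all genes). Only LOVO had one in CDH7, CDH8, CDH9, CDH11 and CDH23 (15.6%, against 4.94%), and only RKO in CDH1, CDH5, PCDH7, PCDH9 and PCDH17 (15.6%, against 9.88%). With the RKO list reduced to the size of the LOVO list, CDH1, CDH5 and PCDH17 had no RKO peak left. Each held 1 peak of 2001 bp, the width at which ties were kept by chromosome and position. Those lost peaks were thus no narrower than others of 2001 bp that were kept. In the reduced list 5 members had an RKO peak and 2 of them, PCDH7 and PCDH9, in RKO only. The remaining 19 genes had none in either list (59.4%, against 74.6%). The genes of the family are longer than most, with a median body of 135.1 kb against 24.5 kb, so these shares have to be read by length. Averaged over the length classes of the 32 members, 35.5% of all genes had a LOVO peak and 39.0% an RKO peak, above the 25% of the family in each list. The same average is given below for each group of genes as its length-class share. It was not taken for peaks in both lists, in a single list only or in neither. Those shares therefore stand beside all genes without regard to length.

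**Figure D1:**
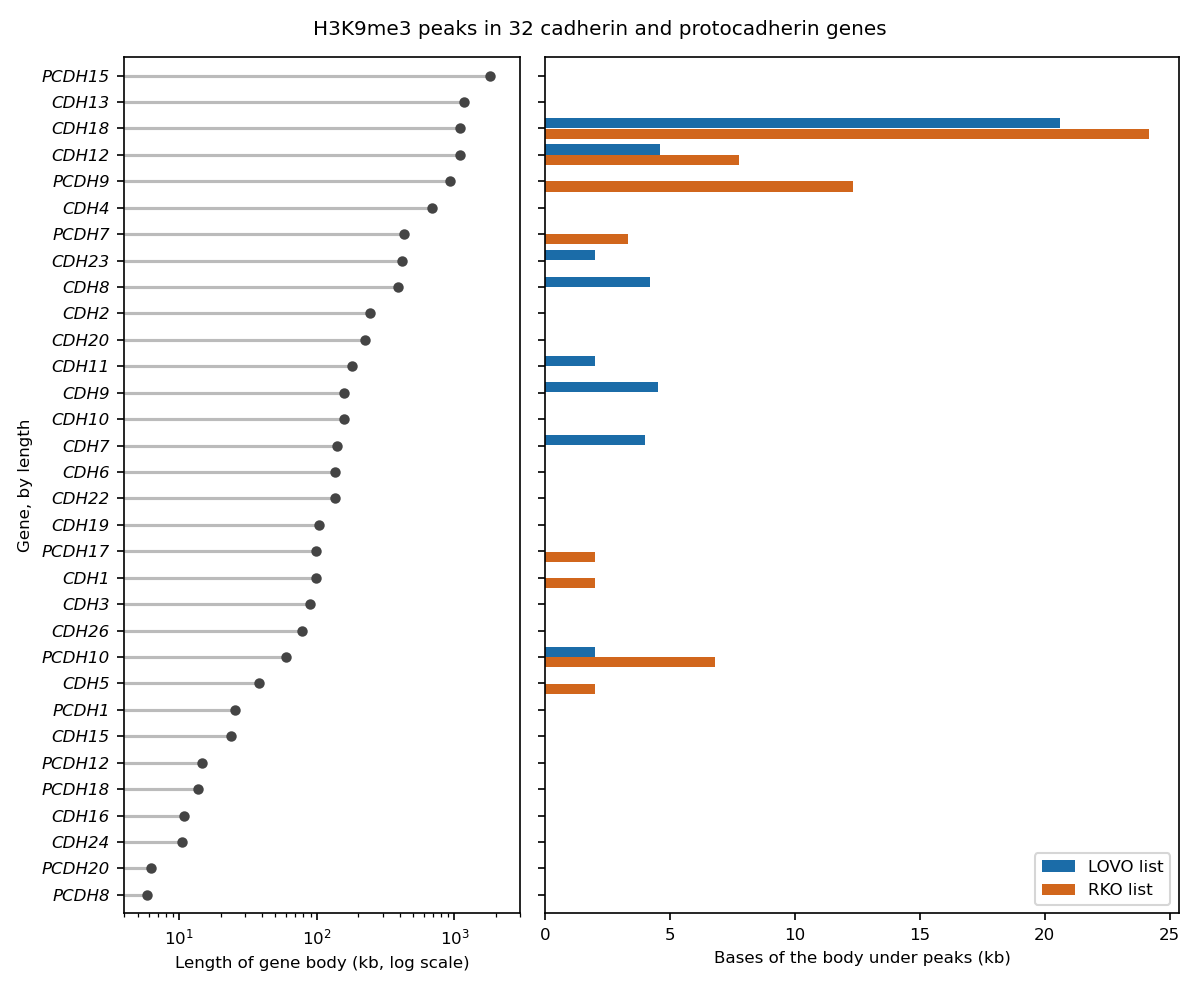
Length of each of the 32 gene bodies (left, kb on a log scale) and bases of the body under LOVO and RKO peaks (right, kb), genes ordered by length. CDH18 has the longest bars of both lists, 20.6 kb in LOVO and 24.2 kb in RKO, while PCDH15 and CDH13, the longest genes, have none.

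CDH18, a type II cadherin of the brain, held 47.0% of the family's LOVO bases and 40.04% of its RKO bases. It lies on chromosome 5 from 19471296 to 20575713 (1104 kb). The LOVO list placed 10 peaks on 20.6 kb of it (1.87% of the body), the RKO list 9 peaks on 24.2 kb (2.19%). With lists of equal size 4 RKO peaks were left in CDH18, on 14152 bp, which is less than in LOVO. Among the 303 protein-coding genes of 500 kb or more, CDH18 ranked 54 by share of the body in LOVO and 64 in RKO, where the median gene had 0.384% and 0.375%. The peaks were spread along the gene rather than gathered in a block, from 30.2 to 973.4 kb from its upstream end in LOVO and from 31.1 to 1043.8 kb in RKO. In 2 places the lists met: at chr5:20544551-20546551 in LOVO and chr5:20543572-20545572 in RKO, near the upstream end, with 1022 bp in common, and at chr5:19844695-19846695 and chr5:19841852-19845629, with 935 bp in common. The other 8 LOVO and 7 RKO peaks met no peak of the other list. The widest were an RKO peak of 4180 bp (chr5:19529847-19534026) near the downstream end and a LOVO peak of 2600 bp (chr5:19732814-19735413).

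CDH12, another type II cadherin of the nervous system, is the nearest member of the family to CDH18 (chromosome 5, 21750673 to 22853344). At 1103 kb it has almost the same length as CDH18, but its 2 LOVO peaks covered 4.58 kb (0.416%) and its 3 RKO peaks 7.76 kb (0.704%). With lists of equal size 1 RKO peak of 3758 bp was left in CDH12. A single region, 91.9% along the body, was listed in both lines (chr5:21838987-21841569 in LOVO, 2583 bp, and chr5:21840015-21842015 in RKO), with 1555 bp in common. The other LOVO peak lay 7.3% and the other RKO peaks 20.8% and 50.8% along the body. The LOVO peak just upstream of the gene, described with the sequences, was not matched in RKO, whose nearest peak to that start lay 113.0 kb away.

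**Figure D2:**
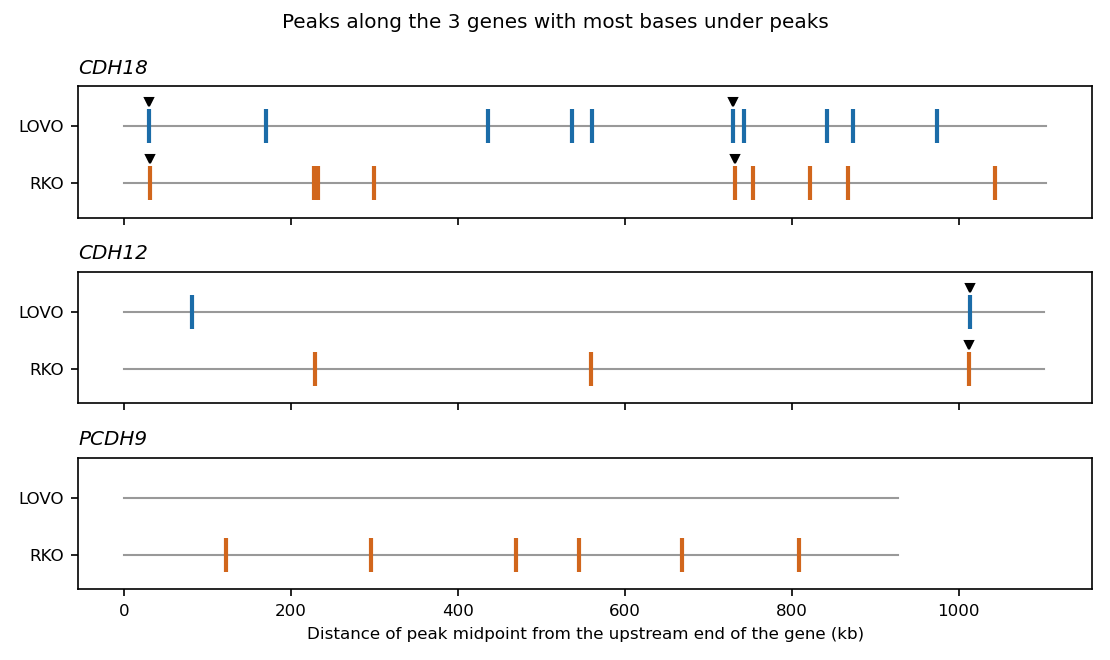
Midpoints of LOVO (upper row) and RKO (lower row) peaks along CDH18, CDH12 and PCDH9, as distance in kb from the upstream end of each gene; grey lines are gene bodies and triangles mark peaks that meet a peak of the other list. CDH18 has 2 such places and CDH12 has 1, and PCDH9 has 6 RKO peaks and no LOVO peak.

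Of the other type II cadherins, 5 had a peak and each in 1 list only. LOVO had 2 peaks in CDH9 (chromosome 5, 26880597 to 27038586), over 4.51 kb or 2.85% of the body, and 2 in CDH8 (chromosome 16, 61647250 to 62036438), over 4.19 kb or 1.08%. Both encode cadherins of neural circuits, and in both the LOVO peaks lay next to each other, at 69.0 and 71.1% along the body in CDH9 and at 68.1 and 68.9% in CDH8. CDH7, expressed in the developing nervous system (chromosome 18, 65750252 to 65890337), had 2 separate LOVO peaks over 4.002 kb (2.86%). In CDH11, the osteoblast cadherin of mesenchymal cells, the widest LOVO peak of the family (chr16:65121778-65124388, 2611 bp) ran across the higher end of the gene, with 1967 bp inside. The endothelial cadherin gene CDH5 (chromosome 16, 66366691 to 66404784) had an RKO peak of 2001 bp, or 5.25% of its body. The remaining type II genes, CDH6, CDH10, CDH19, CDH20, CDH22 and CDH24, had no peak. As a group, 6 of 13 type II genes had a LOVO peak and 3 an RKO peak, over 39.9 and 33.9 kb. The length-class shares were 46.0% in LOVO, about that of the group (46.2%), and 52.1% in RKO, against 23.1% of the group.

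Of the 5 type I cadherins, 0 had a LOVO peak (length-class share 29.4%) and 1 an RKO peak (31.5%). CDH1, which encodes E-cadherin, the adhesion protein of epithelial junctions, had a single RKO peak (chr16:68809025-68811025, 2.04% of the body from 68737292 to 68835537) and no LOVO peak. CDH2 (N-cadherin), CDH3 (P-cadherin), CDH4 (R-cadherin) and CDH15 (M-cadherin, of muscle) had none in either list. Among the other cadherins, CDH23, a component of the tip links of hair cells, had 1 LOVO peak (chr10:71410140-71412140, 0.478% of the body from 71396920 to 71815947), 3.4% along the gene. Its partner in the tip link, PCDH15, had none, and neither did CDH13, the lipid-anchored T-cadherin, CDH16 or CDH26.

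Of the 10 protocadherin genes, 4 had an RKO peak (length-class share 26.9%) and 1 a LOVO peak (25.4%). With lists of equal size, 3 had an RKO peak, since that of PCDH17 was lost. Of the delta-1 genes, PCDH9, a brain protocadherin (chromosome 13, 66302834 to 67230336), had 6 RKO peaks over 12.3 kb (1.33%), at intervals along the whole body from 13.2 to 87.2% of its length, and no LOVO peak. With lists of equal size only 1 of the 6 RKO peaks in PCDH9 was left, over 2302 bp. The LOVO peaks nearest to its body lay 308.2 kb to 1 side and 1679 kb to the other. PCDH7 (chromosome 4, 30720369 to 31146800) had 1 RKO peak of 3314 bp at 8.7% along the body (0.777%), and PCDH1 had none. Of the delta-2 genes, PCDH10, an adhesion gene of the developing brain, held the widest peak of the family, an RKO peak of 7381 bp (chr4:133146177-133153557). It ran across the lower end of the gene and over the adjoining noncoding gene PCDH10-DT, with 4264 bp inside PCDH10 (chromosome 4, 133149294 to 133208606). A second RKO peak (chr4:133194813-133197334) contained the whole of the LOVO peak (chr4:133194979-133196979). RKO peaks thus covered 6.79 kb or 11.4% of PCDH10 and LOVO peaks 2.001 kb or 3.37%. No other member reached 10% of its body in RKO, and none did in LOVO, while 5.21% and 2.47% of all protein-coding genes did. PCDH10 lies in a stretch of chromosome 4 from 110 to 135 Mb that was dense in RKO peaks generally. PCDH17 (chromosome 13, 57630108 to 57729311) had 1 RKO peak, 2.02% of the body, while PCDH8, PCDH12, PCDH15, PCDH18 and PCDH20 had none.

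The median body was 180.0 kb in the 13 members with a peak in either list and 88.5 kb in the 19 without. The order by length held in neither list throughout the classes. Across the 32 genes Spearman's rho of length with bases under peaks was 0.38 in LOVO and 0.27 in RKO, against 0.44 and 0.48 across all 19126; genes are not independent, and most of these values are 0. Of 14 members under 100 kb, LOVO had a peak in 1 (8.46% of all genes of that length had one) and RKO in 4 (12.7%). Of 12 members of 100 to 500 kb, LOVO had a peak in 5 (48.3%), close to the background. RKO had one only in PCDH7, 1 of 12, where 59.0% of all genes of that length did. Of 6 members of 500 kb or more, LOVO had a peak in 2 (73.3%) and RKO in 3 (60.4%). No test of these differences was made.

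**Figure D3:**
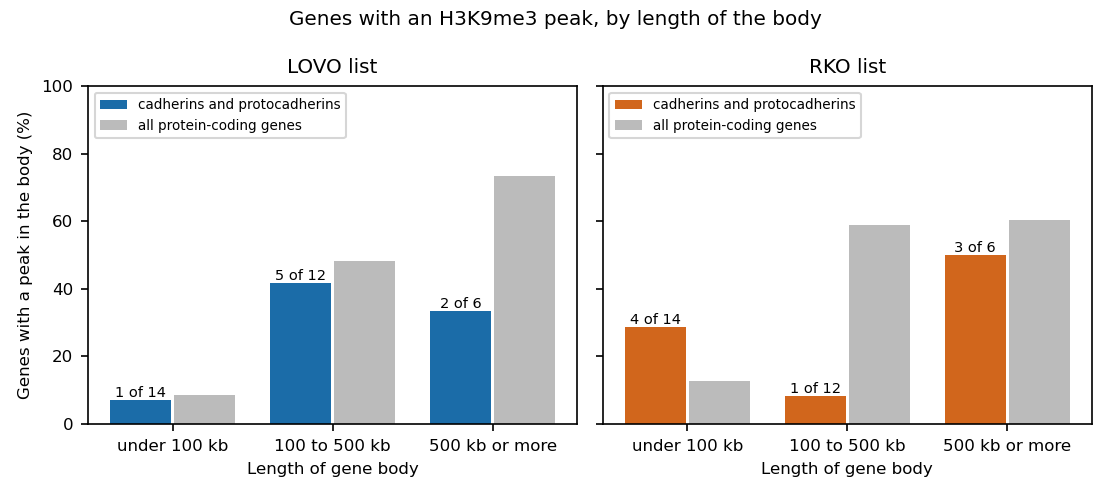
Share of genes with a peak in the body (%) by length class, for the family (coloured, with counts) and all protein-coding genes (grey), in each list. The 2 counts that lie furthest below the grey bars are 1 of 12 genes of 100 to 500 kb in RKO and 2 of 6 genes of 500 kb or more in LOVO.

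Of these 6 longest genes, PCDH15 (1825 kb), CDH13 (1174 kb) and CDH4 (688.4 kb) had no peak in either list, 3 of 6 where 17.5% of all genes of that length had none. Of 66 protein-coding genes of 1 Mb or more, 10 had no peak in either list, and PCDH15 and CDH13 were among them. PCDH15 ranked 2 by length among all 14265 protein-coding genes without a peak, CDH13 ranked 6 and CDH4 ranked 27. The peak-free interval around PCDH15 measured 3.53 Mb in LOVO, rank 17 of 14782 intervals between neighbouring peaks, and 2.64 Mb in RKO, rank 88 of 21909. Around CDH13 it measured 2.39 and 2.01 Mb, and around CDH4 1.91 and 2.33 Mb, while the median interval was 69.0 kb in LOVO and 32.8 kb in RKO. Such an interval is at least as long as the gene inside it. For long genes chosen as having no peak, an interval far above the median was thus fixed by the choice. These intervals include stretches that may be unsequenced or not mappable, which was not tested.

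Several shorter members also lay in long peak-free intervals, often of 1 line. In LOVO, PCDH8 and PCDH17 stood at either end of an interval of 5.25 Mb on chromosome 13 (rank 4), and PCDH20 lay in one of 4.61 Mb (rank 8). In RKO, CDH7 and CDH19 shared an interval of 5.445 Mb on chromosome 18 (rank 15), CDH2 lay in one of 5.20 Mb (rank 16) and CDH8 in one of 5.09 Mb (rank 21). LOVO had peaks inside CDH7 and CDH8, and its nearest peak to CDH19 lay 8.5 kb from the body against 2499 kb in RKO.

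By chromosome, the family's bodies on chromosome 5 held most of the LOVO bases (29.7 kb, 1.10% of 7 bodies, against 1.80% of the whole chromosome) and of the RKO bases (31.9 kb, 1.18% against 1.77%). On chromosome 16, which has 8 members, LOVO peaks covered 0.308% of the bodies (0.975% of the chromosome) and RKO peaks 0.1999% (1.32%). On chromosome 13 the 4 members had 14.3 kb under RKO peaks, 1.38% against 1.39% of the chromosome, and none under LOVO peaks. On chromosome 18 the reverse held, with 4.002 kb under LOVO peaks, all in CDH7, and none under RKO peaks. The 3 members on chromosome 20, CDH4, CDH22 and CDH26, had no peak in either list, although RKO peaks covered 2.16% of that chromosome. On chromosome 4 the RKO share of the 3 bodies, 2.02%, was close to that of the chromosome, 1.98%. CDH24 is the only member on chromosome 14.

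**Figure D4:**
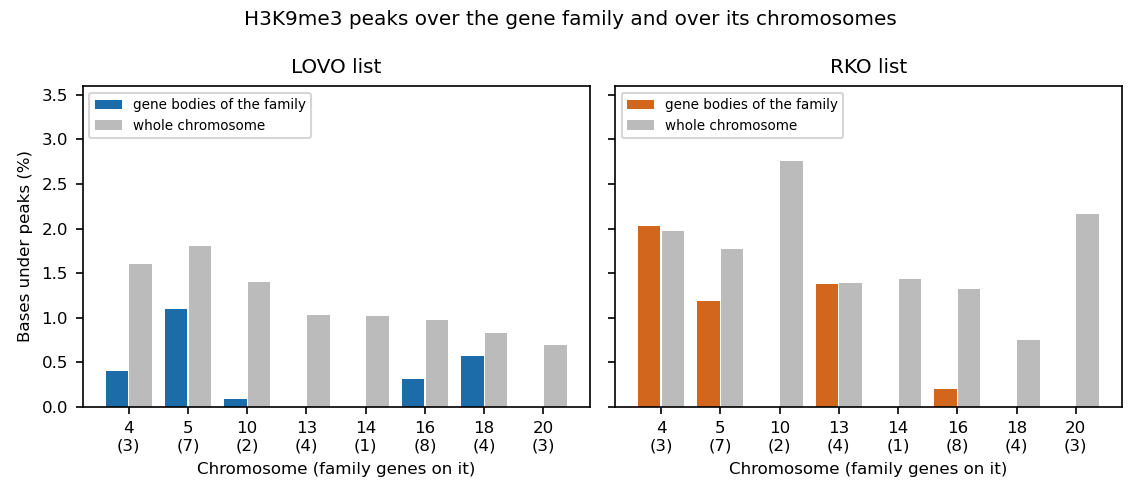
Bases under peaks (%) of the family's gene bodies (coloured) and of the whole chromosome (grey) for each chromosome with a member; the number of members is in brackets. In LOVO every coloured bar is below its grey bar; in RKO the bars on chromosomes 4 and 13 are about equal to it.

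Some members without peaks, or with few, had many beside them. Within 200 kb on either side of CDH9, 35.3 kb was under peaks in LOVO and 28.5 kb in RKO, against 4.51 kb and none inside. CDH6 and CDH9 both lie in a stretch of chromosome 5 from 25 to 50 Mb dense in LOVO peaks, yet CDH6 had no peak and 8.27 kb beside it. CDH11 had 26.1 kb beside it in LOVO and none in RKO. The neighbours CDH1 and CDH3 had 33.1 and 31.8 kb beside them in LOVO, mostly the same peaks. Of these, 25.5 kb lay within ZFP90, a zinc finger gene 68.8 kb from CDH3, in 6 peaks, where RKO had 1 peak over 1.002 kb. Over the whole flanks, RKO had 8.10 kb beside CDH1 and 18.5 kb beside CDH3. CDH15, without a peak inside, had 18.2 kb beside it in RKO and 7.70 kb in LOVO. CDH18 showed the opposite arrangement, with 2.001 kb beside it in LOVO and none in RKO.

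**Figure D5:**
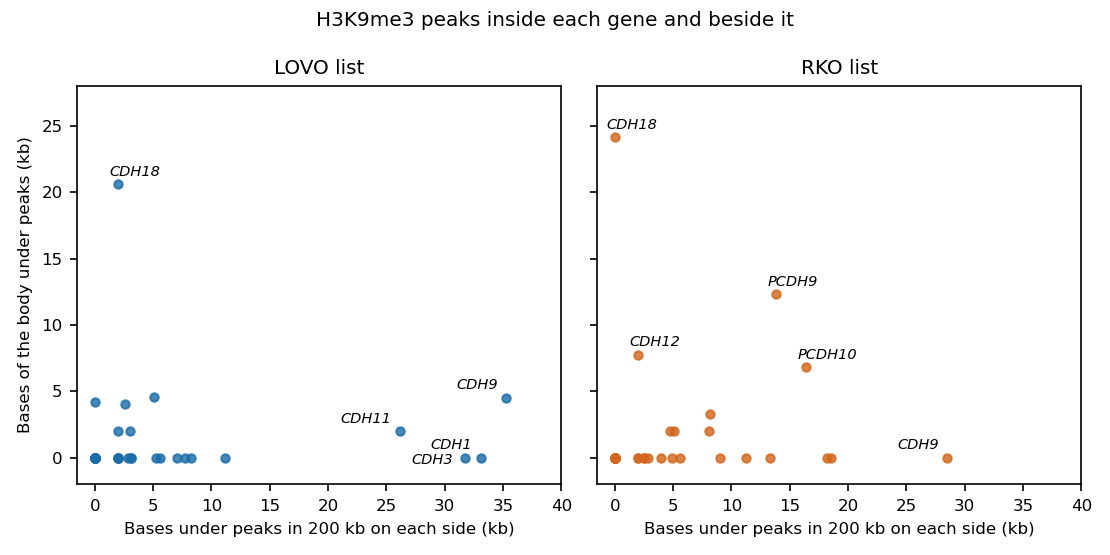
Bases under peaks (kb) inside each of the 32 genes (vertical axis) and in 200 kb on each side of it (horizontal axis), by list. CDH18 has many inside and few beside it; CDH9, CDH11, CDH1 and CDH3 in LOVO and CDH9 in RKO have many beside and few or none inside.

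Peaks in the family were narrow and mostly listed in 1 line. Of 21 LOVO peaks 15 had exactly the width of 2001 bp that is commonest in the lists (71.4%, against 54.6% of the list), and of 24 RKO peaks 15 had (62.5%, against 38.05%). The median width was 2001 bp in both, against 2001 bp in the LOVO and 2587 bp in the RKO list. An RKO peak met 4 of the 21 LOVO peaks (19.05%, against 35.5% of the list), and a LOVO peak met 4 of the 24 RKO peaks (16.7%, against 23.75%). These were 2 places in CDH18, 1 in CDH12 and 1 in PCDH10, and they had 5.51 kb in common. Of the family's peaks, 2 RKO peaks also met another annotated gene, PCDH10-DT and the noncoding gene LOC105370247 inside PCDH9. The gene table gives no exons, so places in exons or introns are not described.

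Partners and relatives of the family were counted in the same way. Of 13 catenin and plakophilin genes, which encode the proteins that tie cadherins to the cytoskeleton, 8 had a LOVO peak and 5 an RKO peak, over 39.8 and 24.2 kb (length-class shares 32.6% and 34.4%). CTNND2, the neuronal delta-catenin on chromosome 5, had 7 LOVO peaks over 14.2 kb and no RKO peak. CTNNA2 carried LOVO peaks alone, over 4.002 kb, and CTNNA3, at 1851 kb about as long as PCDH15, had 2.71 and 6.003 kb. CTNNB1, which encodes beta-catenin, had none in either list. Of 7 desmosomal cadherin genes, DSG1 and DSG4 had a LOVO peak (2.001 and 1.54 kb) and none had an RKO peak (length-class shares 8.46% and 12.7%). Of 18 large and atypical cadherin genes, 4 had a LOVO peak and 5 an RKO peak (length-class shares 24.5% and 28.3%). In RKO these included CDHR2 (7.14 kb, 13.4% of its body), FAT4 (7.30 kb, 4.10%) and FAT1 (4.67 kb, 3.36%), with CDHR3 in both lists. FAT4 and CDHR3, like ZEB1 and VIM named next, lie in stretches dense in RKO peaks. So does CTNNAL1 among the catenin and plakophilin genes, with 10.0 kb of their RKO bases. PKP2, with 4.002 kb in LOVO, lies in a stretch dense in LOVO peaks. Of 5 genes for repressors of CDH1, only ZEB1 had peaks (29.8 and 37.7 kb), and SNAI1, SNAI2, TWIST1 and ZEB2 had none (length-class shares 24.4% and 31.2%). Of 7 epithelial marker genes, CDH1 alone had a peak, the RKO peak given above (length-class shares 8.46% in LOVO and 12.7% in RKO). The mesenchymal markers CDH11 (LOVO) and VIM (RKO, 4.19 kb) had a peak and CDH2 and FN1 had none, 1 of 4 in each list with length-class shares of 28.4% and 35.8%. The endothelial markers CDH5 and PECAM1 (2.54 kb) each had an RKO peak and no LOVO peak, with shares of 12.7% and 8.46%. Of 5 neuronal markers, CDH8, CDH18 and RBFOX3 (4.07 kb) had a LOVO peak and CDH18 and PCDH9 an RKO peak, with shares of 63.3% and 59.8%, and CDH10 had none. None of these lists was tested against its share.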

How the data were processed

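The members, the gene lists and the comparisons were chosen with earlier results of these data known. The authors deposited 2 tables without header, 1 for each line, whose usable values are positions: chromosome, start and end. They hold no peak score, fold or p-value. Per the submitters' processing notes, HOMER 4.11, Bowtie2 2.4.2 and Picard 2.26.0 were used with hg38, as were Trim Galore 0.6.6 and FastQC 0.11.9, with no role stated. The settings for calling peaks, the pooling of libraries, the use of inputs and the handling of multiply mapped reads were not given in the sources used here. All of these can affect how many peaks a list holds and how wide they are.

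Peaks were placed on the gene spans of a RefSeq table of GRCh38.p14, the build of hg38. A gene had a peak if at least 1 bp of its body was covered. Strand and starts came from RefSeq promoter windows. Counts over the family are set beside those over all 19126 protein-coding genes of chromosomes 1 to 22. For subgroups and related lists, the length-class share is the percentage of all genes with a peak in the class of each gene, averaged over the list. All values are descriptions without a test. Every member with a peak is named, with coordinates for the 12 with most bases and the 3 widest peaks of each list. Alternatives are in the closing section. A stretch is called dense where 4 or more consecutive bins of 5 Mb all hold 2 or more times the peak number of the median bin. The code was tested on simulated data. The code ran in Python 3.11.15 with pandas 2.3.3 and numpy 2.4.6; scipy 1.17.1 gave the rank correlations and matplotlib 3.10.9 the plots.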

Additional observations from a re-analysis of the deposited data

How the results depend on the processing

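Of 57 alternative values, 38 stayed within 1.5 times the reported one and on its side of 0. With at least 10% of the body required, 0 members had a LOVO peak and 1 an RKO peak (PCDH10), with 0 in both lists, 0 in LOVO only and 1 in RKO only. With peaks above the median width of their list, 5 members had a LOVO and 4 an RKO peak (3 and 2 in that list only), over 13.8 and 25.5 kb (13847 and 25488 bp). With lists of equal size, LOVO kept all its peaks and RKO its widest, with ties at 2001 bp kept by chromosome and position. In that setting 5 members had an RKO peak, 2 of them in RKO only (CDH1, CDH5 and PCDH17 lost theirs), and RKO bases fell to 30312 bp. The difference of RKO minus LOVO, 16.5 kb as reported, was then -13550 bp, with peaks of 2001 bp cut from the RKO list only. Among members of at least 100 kb, 4 had an RKO peak and 2 of these in RKO only. Without CDH18 the bases were 23253 bp in LOVO and 36170 bp in RKO. Leaving out dense segments removed CDH6, CDH9 and PCDH10 and left 6 and 7 members with a peak. The difference between the lines was added after seeing the data. Peak midpoints, 5 kb added at each end and joined peaks moved no value by more than 1.5 times. No paired analysis was possible because the lists carry no replicate number, and for the same reason no replicate could be left out. Unknown depth limits every statement that a gene had no peak.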
